A study of Homo sapiens with 20 samples.

Results

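The data described here are the 4 peak lists of WT M14 cells in which CTCF and SMC1A were immunoprecipitated, 2 lists for each protein, out of the 16 peak lists and 20 samples of the series. M14 is an established human melanoma line. All cells of the study, the WT cells included, carried a doxycycline-inducible shRNA against STAG2. WT cells were grown without doxycycline and STAG2-KD cells with it, and only WT cells enter the comparisons below. The 2 WT input libraries, sequenced without immunoprecipitation, served as the controls of peak calling and have no peaks here. The CTCF antibody came from Cell Signaling and the SMC1A antibody from Bethyl. Members were all peaks on chromosomes 1 to 22 and X. The CTCF list of replicate 1 had 86248 such peaks and that of replicate 2 had 122299, and the SMC1A lists had 82239 and 148383. A peak was called shared when it overlapped a peak of the other protein in the same replicate by at least 1 bp, and CTCF-only or SMC1A-only when it did not. Libraries of replicate 1 were size-selected on beads and those of replicate 2 on a gel after another chromatin preparation. Nothing in the labels says whether they came from separate cultures, so SDs and p-values measure only the spread between these libraries, which may be technical.

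CTCF is a zinc-finger protein that binds a long, directional DNA motif. Cohesin is a ring-shaped complex that extrudes chromatin loops and often stops where it meets CTCF. SMC1A is one of the core ATPases of the ring and is present in all mitotic cohesin, whichever of the alternative subunits STAG1 or STAG2 the ring carries. Cohesin is also loaded at, and found near, active promoters and enhancers that CTCF need not bind. A CTCF peak without an SMC1A peak, and the reverse, therefore mark the sites at which the detected occupancy of these proteins parts.

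The 3 strongest sites of each class in both replicates are printed as examples, and they do not stand for their class. Sequences are from the hg19 reference, and capitals mark a match to the CTCF motif core CCNNNAGNNGGC, searched on both strands with its centre within 100 bp of the CTCF or SMC1A summit. A site without a match is printed as the bases around its summit, all in lower case. The strongest shared site lay between genes, 4.67 kb from CHST8, which encodes a carbohydrate sulfotransferase. The second lay at the promoter of NOTUM, a secreted enzyme that inactivates Wnt proteins, and the third over the pseudogene THA1P.
CHST8 shared site, chr19:34269119-34269170, plus strand: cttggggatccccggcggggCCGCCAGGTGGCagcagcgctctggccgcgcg
NOTUM shared site, chr17:79917716-79917767, plus strand: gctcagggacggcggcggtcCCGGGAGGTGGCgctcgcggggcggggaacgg
THA1P shared site, chr17:76247102-76247153, plus strand: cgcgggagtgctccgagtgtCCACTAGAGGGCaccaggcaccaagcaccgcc
The strongest CTCF-only sites lay in an intron of the pseudogene PPP5D1P, at the promoter of MPST, a mitochondrial and cytosolic sulfurtransferase, and at the promoter of DPP3, a dipeptidyl peptidase. None of these 3 sites held the motif core within 100 bp of the summit.
PPP5D1P CTCF-only site, chr19:47040920-47040980, plus strand: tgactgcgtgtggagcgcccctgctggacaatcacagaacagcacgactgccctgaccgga
MPST CTCF-only site, chr22:37418138-37418198, plus strand: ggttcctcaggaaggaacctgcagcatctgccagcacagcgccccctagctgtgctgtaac
DPP3 CTCF-only site, chr11:66258956-66259016, plus strand: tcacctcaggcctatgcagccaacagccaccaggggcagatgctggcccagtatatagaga
The strongest SMC1A-only sites lay at the start of the non-coding gene ENSG00000249483 on chromosome 5, at the start of ENSG00000287646 next to RTTN, which encodes a centriole protein, and within 1 kb of the start of GBP1, an interferon-inducible GTPase. None held the core, and the GBP1 window opens with a dinucleotide repeat.
ENSG00000249483 SMC1A-only site, chr5:81147809-81147869, plus strand: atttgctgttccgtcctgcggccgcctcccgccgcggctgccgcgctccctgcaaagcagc
RTTN SMC1A-only site, chr18:67873222-67873282, plus strand: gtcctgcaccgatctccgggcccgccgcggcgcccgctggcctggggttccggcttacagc
GBP1 SMC1A-only site, chr1:89529924-89529984, plus strand: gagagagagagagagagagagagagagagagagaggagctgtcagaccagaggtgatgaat

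The shared sites outranked the others by a wide margin. At the CHST8 site the fold enrichment over background was 127 for CTCF and 97.9 for SMC1A in replicate 1, and 83.1 and 53.5 in replicate 2. That site ranked 1st in 3 of the lists and 8th in the CTCF list of replicate 2. At the NOTUM site the SMC1A summit lay 14 bp from the CTCF summit in replicate 1 and 2 bp in replicate 2. Both sites also carried STAG1 and STAG2 peaks in both replicates. By contrast, the PPP5D1P site, the highest CTCF-only site by summed rank, stood 10589th and 8707th among CTCF peaks, with fold enrichments of 51.8 and 37.8. Its nearest SMC1A peaks were 4499 and 4162 bp away, although a STAG2 peak overlapped it in both replicates. The top SMC1A-only site, at ENSG00000249483, ranked 6919th and 4946th among SMC1A peaks, with fold enrichments of 29.6 and 21.1, and it carried both STAG1 and STAG2 peaks in both replicates.

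How much of the binding of each protein was shared was the first comparison. In replicate 1, 53034 CTCF peaks were shared (61.5%) and 33214 were CTCF-only. In replicate 2, 79728 were shared (65.2%) and 42571 were CTCF-only. The mean shared portion of CTCF peaks was 63.3% ± 2.62 (SD, n = 2). Of the SMC1A peaks, 53822 were shared in replicate 1 (65.4%) and 80907 in replicate 2 (54.5%), with a mean of 60.0% ± 7.72 (SD, n = 2). SMC1A-only peaks numbered 28417 and 67476. Shared peaks were thus the larger class in each of the 4 lists, and the classes moved most between replicates on the SMC1A side.

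Neither protein could be called the more widely bound. The log2 ratio of SMC1A to CTCF peak number was −0.07 in replicate 1 and 0.28 in replicate 2, with a mean of 0.11 ± 0.25 (SD, n = 2, two-sided exact permutation test, p = 1). The shared portion of CTCF peaks minus that of SMC1A peaks was −3.96 percentage points in replicate 1 and 10.7 in replicate 2 (exact permutation test, p = 1). With 2 lists against 2, that test cannot give a p below 0.333. When every list was limited to −log10 q-values of at least 5, the difference was −17.8 and −14.5 points, so that SMC1A peaks were then the more often shared in both replicates. Lists of replicate 1 were limited to q-values up to 0.00997, whereas those of replicate 2 reached 0.364. By the estimate described below, replicate 2 also drew on more reads, 37.4 M for CTCF and 48.1 M for SMC1A against 20.2 and 23 M.

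Covered sequence differed between replicates by more than peak number did. CTCF peaks covered 39.1 and 81.5 Mb, and SMC1A peaks 34.0 and 88.8 Mb. The bases covered by both proteins made up 0.449 of the bases covered by either in each replicate. Few sites had several partners: 3.94% and 6.93% of shared CTCF peaks overlapped more than 1 SMC1A peak.

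The classes were then compared by peak strength. Each peak was given its percentile by −log10 p-value within its own list, 100 being the strongest. Shared CTCF peaks had a median percentile of 69.0 in replicate 1 and 67.0 in replicate 2, and CTCF-only peaks 25.2 and 26.4. Shared SMC1A peaks had medians of 67.0 and 71.5, and SMC1A-only peaks 24.1 and 30.9. The gap was 42.2 ± 2.27 percentile points for CTCF and 41.7 ± 1.58 for SMC1A (SD, n = 2), and it was present in all 4 lists. A randomly taken shared peak was stronger than a randomly taken unshared peak in 88.0% and 84.5% of pairs for CTCF and in 86.1% and 82.7% for SMC1A. Both classes came from the same library, and sites are not replicates, so these gaps are given without a test over sites.

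Fold enrichment showed the same order. Median fold enrichment of CTCF peaks was 33.8 at shared and 6.33 at CTCF-only sites in replicate 1, and 15.4 and 3.90 in replicate 2. For SMC1A it was 10.4 and 4.66, then 5.81 and 3.00. Shared peaks were also wider, with median widths of 601 against 204 bp for CTCF and 442 against 196 bp for SMC1A in replicate 1, and a wide peak has more sequence on which to overlap. When every peak was replaced by a window of 201 bp around its summit, 57.4% of CTCF peaks and 54.1% of SMC1A peaks were shared on average. The replicates had 58.4% and 56.5% for CTCF and 61.4% and 46.8% for SMC1A. Shared peaks were then the smaller class in the SMC1A list of replicate 2. With these windows the strength gaps were 44.5 and 42.5 points.

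**Figure D1:**
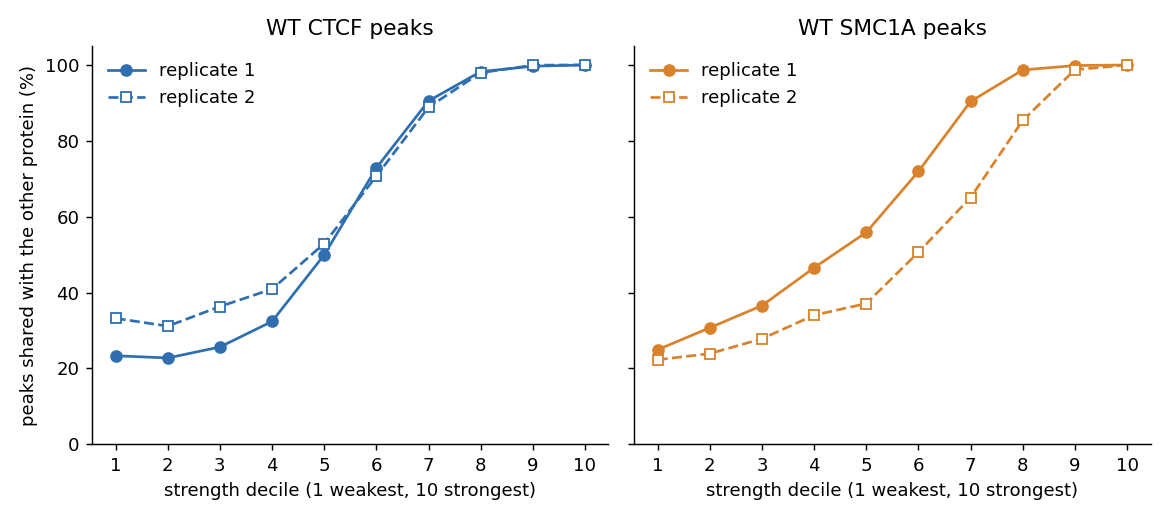
Percentage of WT CTCF peaks (left) and WT SMC1A peaks (right) that overlap a peak of the other protein, by decile of strength within each list, for replicate 1 (filled circles, solid line) and replicate 2 (open squares, dashed line). All 4 lists climb to over 99.9% in the strongest decile, and the weakest deciles lie between 22.3% and 33.2%.

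The rise with strength was steep, as the plot by strength decile shows. In the weakest decile 23.3% and 33.2% of CTCF peaks and 24.9% and 22.3% of SMC1A peaks were shared. In the eighth decile the CTCF lists reached 98.2% and 97.9%, and the SMC1A lists 98.7% and 85.4%. All of the 1000 strongest peaks were shared in each of the 4 lists. Among the 10000 strongest, 1 CTCF peak in each replicate and 2 and 1 SMC1A peaks were unshared. The strongest unshared CTCF peaks ranked 5879th and 8707th and the strongest unshared SMC1A peaks 4834th and 4946th. At shared sites the strengths of both proteins went together, with a Spearman correlation of percentiles of 0.804 over 53034 sites and 0.736 over 79728 sites. These are correlations across sites, which share input, mappability and the peak caller.

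Where the peaks of both proteins overlapped, their summits were close. The median distance between summits was 21 bp in replicate 1 and 57 bp in replicate 2. In replicate 1, 79.4% of shared CTCF peaks had an SMC1A summit within 50 bp, and in replicate 2 46.2% did. Summits over 200 bp apart made up 5.38% and 13.6%. Strong sites were the most precise: the median distance was 14 and 33 bp in the strongest CTCF quartile and 91 and 156 bp in the weakest. It was 32 and 86 bp at promoters and 18 and 50 bp elsewhere.

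**Figure D2:**
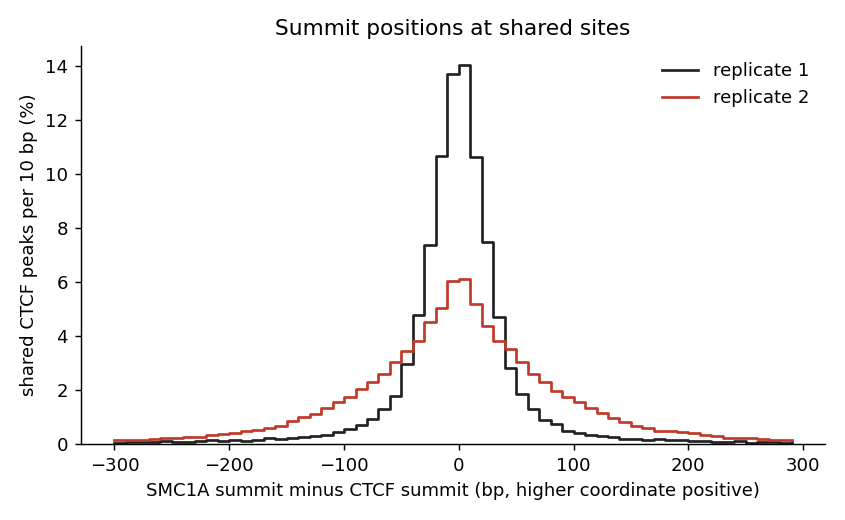
Distribution of the SMC1A summit's distance from the CTCF summit at shared sites, in bins of 10 bp from −300 to 300 bp, as a percentage of the shared CTCF peaks of replicate 1 (black) and replicate 2 (red). Both curves are centred near 0, and that of replicate 2 is lower and broader, with median absolute distances of 21 and 57 bp.

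The direction of the motif was compared with the side on which the SMC1A summit lay, since cohesin that halts at CTCF is known to do so mainly on one side of the motif. In replicate 1, 48.4% of SMC1A summits lay on the 3′ side of the motif centre, with a median offset of −1.5 bp over 17724 sites. In replicate 2, 51.4% did, with a median offset of 2.5 bp over 20981 sites. The offset thus had opposite signs in the replicates, and its size was far below the median summit distance, so no side was resolved by these summits.

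The CTCF motif core was most frequent at shared sites and least frequent at SMC1A-only sites, where it came nearest its background. Within 100 bp of the summit it was found at 33.4% and 26.3% of shared CTCF peaks and at 17.6% and 12.3% of CTCF-only peaks. The gap was 14.9 ± 1.27 percentage points (SD, n = 2). Of SMC1A peaks, 32.6% and 23.4% of the shared and 4.64% and 2.83% of the SMC1A-only had it. In sequence 5 kb away from the summits, 2.21% to 2.42% of windows of the same length held it in all these classes. At like strength the gap between shared and CTCF-only peaks was smaller. In the weakest CTCF quartile it was −1.58 and −0.910 points, in the second 1.36 and 0.290, and in the third 5.19 and 4.82. In the strongest CTCF quartile it was 6.93 and 12.4 points, resting on 80 and 62 CTCF-only peaks. Between shared and SMC1A-only peaks the gap remained in every SMC1A quartile. It ran from 12.7 and 7.38 points in the weakest to 38.3 and 32.1 in the strongest, which held 49 and 895 SMC1A-only peaks. With an 11-letter core that admits fewer letters, SMC1A-only peaks had 0.918% and 0.680%, against 0.700% and 0.756% at 5 kb, while shared SMC1A peaks had 25.7% and 17.9%. A search that admits no mismatch misses many CTCF sites, so these percentages serve only for comparison between classes.

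**Figure D3:**
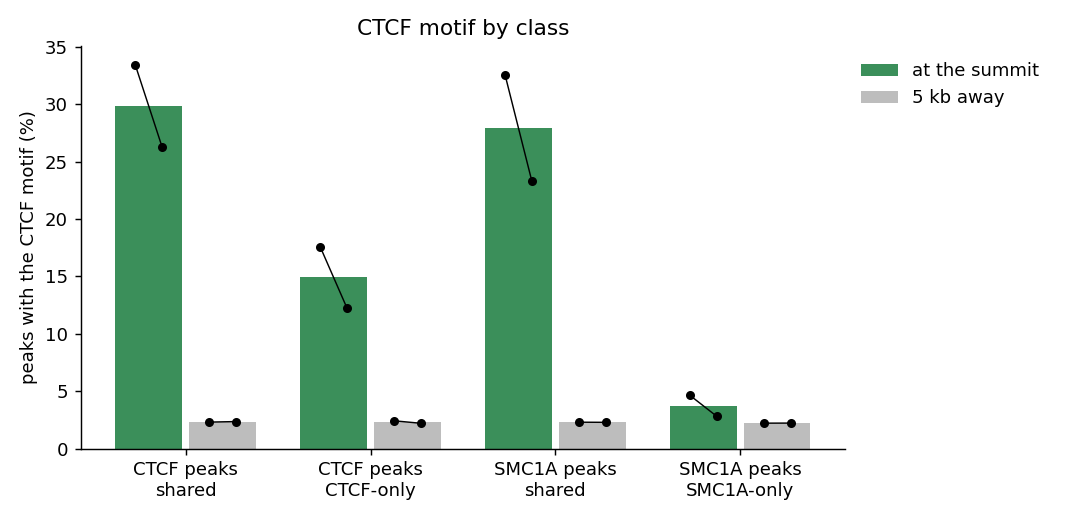
Percentage of peaks with the CTCF motif core within 100 bp of the summit (green) and in windows 5 kb away (grey), by class. Bars are means of the 2 replicates and joined dots the replicates, with replicate 1 on the left; SMC1A-only peaks (4.64% and 2.83%) lie closest to the grey bars.

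CTCF peaks with the core were shared more often than those without it, at 75.2% against 56.3% in replicate 1 and 80.1% against 61.1% in replicate 2. They were also stronger, with median percentiles of 69.3 against 43.4 and of 73.7 against 44.4. Within the weakest CTCF quartile 21.6% of peaks with the core and 23.8% of those without it were shared in replicate 1, and 30.7% and 33.0% in replicate 2, so the order there was turned. The letters at its free positions also went with the class. Counting from 1 at the 5′ end, CTCF sites with an A at the third position were shared in 81.2% and 84.8% of cases, and those with a T in 60.6% and 68.9%. Those with a G there were shared in 80.5% and 85.8%, and those with a C in 60.8% and 70.9%. A-bearing sites were also stronger than T-bearing sites, with mean percentiles of 67.9 and 71.5 against 53.7 and 57.9. Within the second weakest quartile of CTCF strength, the values were 41.8% and 43.7% with A and 31.4% and 38.5% with T. The order of A and T thus held there with a smaller gap. G stood above A in that quartile, at 52.0% and 63.4%, and C was at 39.1% and 52.7%. Other orders turned within that quartile: sites with A at the ninth position were shared less often than those with G over all sites, at 55.5% against 77.3% and 64.6% against 82.3%, but slightly more often within it, at 37.3% against 35.7% and 45.8% against 40.8%. Among 49 sets of letters with at least 200 sites over both replicates, the shared portion spanned 53.0% to 96.0% in replicate 1, and 61.5% to 98.5% in replicate 2. The following sets show the common form, the most often shared one and 2 that were among the least often shared. Those 2 were still shared at over 50% of their sites. The sets also differed in CTCF strength. In the order printed, median percentiles were 81.6 and 86.1, 85.2 and 90.9, 47.0 and 54.4, and 62.0 and 69.4. Letter sets were not compared at like strength.
Most frequent, 87.5% and 91.6% shared of 866 and 880 sites: CCAGCAGAGGGC
Most often shared, 96.0% and 98.5% of 571 and 546 sites: CCACTAGAGGGC
Less often shared, 53.9% and 61.5% of 217 and 273 sites: CCAGCAGGAGGC
Less often shared, 53.0% and 63.1% of 100 and 103 sites: CCTGTAGGGGGC

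The place of the sites in the genome differed by class and by strength. Sites whose midpoint fell at most 1 kb from the start of an annotated transcript were called promoter sites, and the rest exonic, intronic or intergenic. Promoters held 7.03% of evenly spaced genome positions, and every class exceeded this. Shared CTCF peaks lay at promoters in 26.9% and 26.6% of cases and CTCF-only peaks in 19.4% and 12.8%, a gap of 10.6 ± 4.44 points (SD, n = 2). With the 201 bp windows around summits that gap was 0.797 and 0.561 points. These windows give every peak the same width, but they also separate overlapping peaks whose summits lie over 200 bp apart. Such pairs were more frequent at promoters than elsewhere in both replicates. Whether peak width or summit distance lay behind the smaller gap was not tested. Introns held 40.1% and 41.4% of shared and 46.1% and 50.1% of CTCF-only peaks.

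SMC1A-only peaks went in opposite directions in the replicates. At promoters lay 39.6% of them in replicate 1, against 26.9% of shared SMC1A peaks, and 19.9% in replicate 2, against 25.3%. With each list reduced to its 82239 strongest peaks, the promoter portion of shared minus that of SMC1A-only peaks was −14.1 points in replicate 1 and −5.89 in replicate 2, with the stricter threshold −21.5 and −5.80, and with the 201 bp windows −17.8 and −1.53. Under these 3 settings SMC1A-only sites were the more often at promoters in both replicates. Under 4 others the replicates kept opposite signs, with −14.7 and 4.20 points for an overlap of at least 50%, −12.8 and 4.01 for the common threshold, −13.5 and 2.45 for promoters of 2500 bp, and −12.8 and 5.10 for protein-coding starts. The SMC1A-only sites of replicate 1 were also rich in CpG, with a mean of 7.14 CpG dinucleotides in 201 bp around the summit, against 6.30 at shared sites; in replicate 2 they had 3.39 against 5.55.

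Among weak CTCF peaks the classes differed. In the weakest CTCF quartile, 63.3% and 47.8% of shared peaks were at promoters, against 20.9% and 13.3% of CTCF-only peaks. In the strongest quartile the order was turned, with 21.5% and 19.99% of shared peaks and 30% and 25.8% of the 80 and 62 CTCF-only peaks at promoters. The contrast among weak peaks remained with 201 bp summit windows, at 58.2% and 39.9% against 24.9% and 20.9%. The motif was not more frequent at these weak shared peaks: 13.5% and 9.0% held the 12-letter core, against 15.1% and 9.91% of weak CTCF-only peaks, and 4.50% and 3.39% held the 11-letter core against 10.3% and 6.42%. A STAG2 peak overlapped 66.7% and 69.4% of them.

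**Figure D4:**
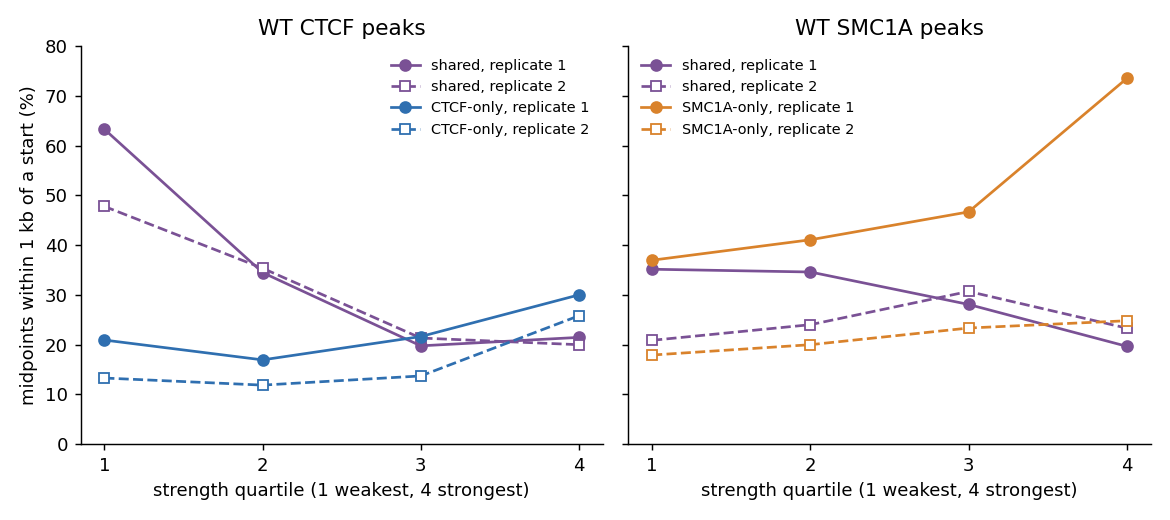
Percentage of peaks whose midpoint lies within 1 kb of an annotated transcript start, by strength quartile within each list, for shared (purple), CTCF-only (blue) and SMC1A-only (orange) peaks of replicate 1 (filled, solid) and replicate 2 (open, dashed). Shared CTCF peaks fall from 63.3% and 47.8% in the weakest quartile to 21.5% and 19.99% in the strongest; the SMC1A-only point of the strongest quartile rests on 49 peaks in replicate 1 and 895 in replicate 2.

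Unshared sites of the 2 proteins also differed in how isolated they were. CTCF-only peaks had a median distance of 9.69 and 6.44 kb to the nearest SMC1A peak, and SMC1A-only peaks 2.93 and 2.67 kb to the nearest CTCF peak. Only 2.18% and 2.80% of CTCF-only peaks and 5.82% and 4.09% of SMC1A-only peaks came within 100 bp of the other protein. A shared site lay within 1 kb of 28.8% and 29.6% of SMC1A-only peaks and of 10.97% and 13.9% of CTCF-only peaks. SMC1A-only peaks were thus nearer to shared sites than CTCF-only peaks in both replicates.

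The WT STAG1 and STAG2 lists gave a further readout of cohesin at the same sites, from other immunoprecipitations of the same replicate set. Shared CTCF peaks carried a STAG1 peak in 85.2% and 84.8% of cases and a STAG2 peak in 90.9% and 89.7%. CTCF-only peaks carried them in 23.04% and 20.9% and in 27.9% and 26.3%, and neither STAG peak was found at 66.9% and 67.4%. About 1 in 3 CTCF-only sites thus overlapped a peak of another cohesin subunit. In the strongest CTCF quartile 99.1% and 99.5% of shared peaks had both STAG peaks. STAG1 presence differed between shared and CTCF-only CTCF peaks by 63.1 ± 1.25 percentage points and STAG2 presence by 63.2 ± 0.259 (SD, n = 2). At like strength these gaps were smaller: in the weakest CTCF quartile STAG1 presence differed by 27.2 and 42.3 points and in the second by 34.6 and 40.6.

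At SMC1A-only peaks STAG2 was more often found than STAG1. A STAG2 peak overlapped 46.6% and 42.1% of them and a STAG1 peak 20.5% and 23.4%. STAG2 without STAG1 was found at 29.5% and 22.98%, and STAG1 without STAG2 at 3.41% and 4.33%. These values are not matched for strength. In the weakest SMC1A quartile STAG2 without STAG1 was found at 24.7% and 17.9% of SMC1A-only and 19.8% and 17.7% of shared peaks, and in the third at 33.4% and 28.6% against 6.36% and 9.87%. Weak shared CTCF peaks, those of the lowest quartile, had it at 31.6% and 22.5%. The difference between STAG2 and STAG1 presence at SMC1A-only peaks was 22.4 ± 5.28 points (SD, n = 2), against 5.15 ± 0.415 at CTCF-only peaks. The STAG2 lists were longer than the STAG1 lists, with 79048 against 63479 peaks in replicate 1 and 118984 against 98437 in replicate 2. With the STAG2 lists reduced to the strongest peaks at the length of the STAG1 lists, the difference was 11.96 and 10.5 points at SMC1A-only peaks and −2.56 and −2.64 at CTCF-only peaks. The direction at SMC1A-only peaks was kept with STAG lists of equal length, and that at CTCF-only peaks was reversed. The STAG antibodies were not compared for efficiency, and a site just under a calling threshold counts as empty.

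**Figure D5:**
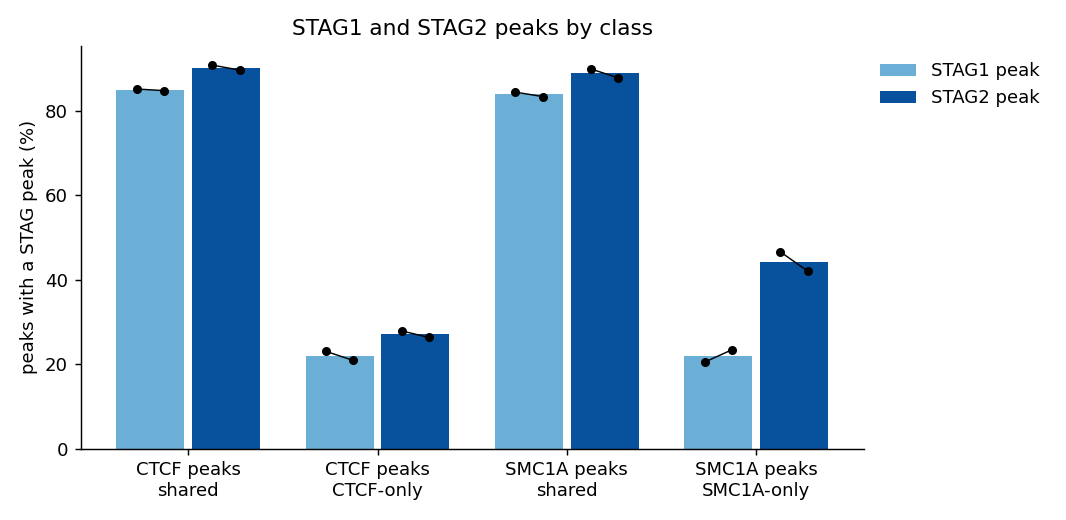
Percentage of WT CTCF and WT SMC1A peaks, by class, that overlap a WT STAG1 peak (light blue) or a WT STAG2 peak (dark blue) of the same replicate. Bars are means of the 2 replicates and joined dots the replicates, with replicate 1 on the left; the bars differ most at SMC1A-only peaks (20.5% and 23.4% for STAG1, 46.6% and 42.1% for STAG2).

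Shared sites of the shorter lists of replicate 1 were nearly all found as shared again. Of the shared CTCF peaks of replicate 1, 97.7% were shared in replicate 2 as well, and of the shared SMC1A peaks 97.6%. CTCF-only peaks of replicate 1 were shared in replicate 2 in 51.2% of cases and CTCF-only again in 44.2%. SMC1A-only peaks of replicate 1 became shared in 47.3% and stayed SMC1A-only in 49.6%. In the reverse direction, 61.8% of the shared CTCF and 60.4% of the shared SMC1A peaks of replicate 2 were shared in replicate 1, and 20.03% and 33.3% had no peak of the same protein there. Further, 64.6% of CTCF-only and 81.5% of SMC1A-only peaks of replicate 2 had no peak of the same protein in replicate 1. Unshared sites of the shorter lists of replicate 1 thus often gained a partner in the longer lists of replicate 2. Sites that kept their class in both replicates numbered 51803 shared CTCF, 14679 CTCF-only and 14084 SMC1A-only peaks, and they were at promoters in 26.9%, 14.2% and 25.3% of cases.

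Across the 23 chromosomes the shared portion of CTCF peaks varied little, between 57.7% and 64.7% in replicate 1, and between 62.0% and 68.5% in replicate 2. The X chromosome was at the lower end for CTCF in both replicates. For SMC1A it was at the upper end, with 81.6% and 62.3% shared. The density of SMC1A peaks on X was 13.6 and 29.1 per Mb, the lowest of all chromosomes in both replicates.

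Promoters of protein-coding genes were then classed by gene, and percentiles given for a gene are those of the strongest peak at its promoter. Over all 19748 genes, 44.7% in replicate 1 and 61.4% in replicate 2 had both proteins within 1 kb of a start, 13.0% and 9.40% had SMC1A without CTCF, and 7.61% and 3.56% had CTCF without SMC1A. Olfactory receptor genes, a large family of sensory receptors that is silent in most tissues, were almost free of both: 360 and 345 of 381 had neither, against 34.6% and 25.7% of all genes. Of 76 cytosolic ribosomal protein genes, 41 and 53 had both proteins, 21 and 19 had SMC1A without CTCF, and 4 and 0 had CTCF without SMC1A.

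Among 15 melanocyte lineage genes, 7 in replicate 1 and 9 in replicate 2 had both proteins, 5 in each replicate had SMC1A without CTCF, and none had CTCF without SMC1A. Over all genes the corresponding portions were 44.7% and 61.4% with both and 13.0% and 9.40% with SMC1A without CTCF, so that the count with both was near that of all genes. The genes with SMC1A alone in both replicates were TYR, which encodes tyrosinase, the first enzyme of melanin synthesis, DCT, a later enzyme of that pathway, PMEL, the fibril protein of the melanosome, and SLC24A5, a melanosomal ion exchanger. Percentiles of the 2 replicates come from lists of unequal length and threshold and are not compared with each other. For SMC1A, TYR stood at percentile 61.2 and 75.6, DCT at 61.1 and 74.9, PMEL at 8.45 and 59.0, and SLC24A5 at 16.3 and 48.7. SOX10 and RAB27A were at the other extreme. At SOX10, a transcription factor of the neural crest, CTCF stood at percentile 94.2 and 93.0 and SMC1A at 88.4 and 91.8. At RAB27A, a small GTPase of melanosome transport, CTCF stood at 97.8 and 97.9 and SMC1A at 99.3 and 99.8. At MITF, the master regulator of the lineage, CTCF stood at percentile 31.6 and 46.3 of its own lists and SMC1A at 59.6 and 81.6 of its own.

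Cohesin genes and interferon genes were next. Of 15 genes of cohesin and its regulators, 9 and 14 had both proteins, where 44.7% and 61.4% of all genes did, and 1 and 1 had SMC1A without CTCF. The STAG1 promoter was among the strongest of them, with CTCF at percentile 99.1 and 99.6 and SMC1A at 99.92 and 99.99, and that of STAG2 had CTCF at 99.1 and 99.6 and SMC1A at 92.5 and 97.7. Of 15 interferon signalling genes, 9 and 13 had both, and 4 and 2 had SMC1A without CTCF. Over all genes, 13.0% and 9.40% had SMC1A without CTCF. In both replicates it was found at only 1 of the 15 interferon genes. USP18, which encodes a protease that removes ISG15 and restrains the interferon receptor, had SMC1A without CTCF in both replicates, at percentile 39.7 and 68.6. At ISG15, the ubiquitin-like modifier, both proteins were strong, with CTCF at 98.9 and 98.7 and SMC1A at 89.3 and 91.1.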

How the data were processed

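WT lists of CTCF, SMC1A, STAG1 and STAG2 were used, 2 for each. Per the study's methods, reads were mapped to hg19 with bowtie2, filtered for quality and duplicates, and MACS2 called peaks with input as control, 1 list per library. For replicate 2 the submitters' processing notes name BWA, SAMtools, Picard and MACS2. The authors deposited the summit offset, fold enrichment (a ratio of pileup to background), −log10 p-value, −log10 q-value and a whole-number score of every peak. Lists of replicate 1 were limited by q-value and those of replicate 2 by p-value. Peaks on chromosomes 1 to 22 and X were kept. Pileup and background were recovered from the deposited fold and −log10 p-value. Pileups came out whole, within 0.02 of a read, for 100% of the peaks tested. Depth was then estimated from the background, assuming a genome of 2.7 Gb and reads extended to the narrowest peak width (120 and 150 bp). The whole pileups do not bear on either assumption. Reads per site were not used here, so the classes are presence or absence at the authors' thresholds, not a test of binding.

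Peaks were ranked by −log10 p-value within each list. Overlaps were computed with numpy 2.4.6 and pandas 2.3.3, checked against bedtools 2.31.1 and tested on simulated data; each shared CTCF peak was paired with the overlapping SMC1A peak of nearest summit. Annotation was GENCODE 44 lifted to hg19. Exact permutation tests (scipy 1.17.1) compared libraries. Replicate numbers mark shared chromatin preparation and size selection per the labels, so classes were compared within a replicate. Named sites were the 5 of each class in both replicates with the lowest rank sum, of which 3 are printed. Members, gene lists and rules were chosen with earlier results of these data known, and the letter sets of the motif were chosen after their values were seen. Alternatives were another overlap, common and stricter thresholds, equal list lengths, ranking by fold, other promoter and motif definitions, leaving out each replicate and a replicate block; 201 bp summit windows and STAG lists of equal number were added after seeing the data.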

Additional observations from a re-analysis of the deposited data

Results flagged for a closer look

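Peaks outside chromosomes 1 to 22 and X entered no comparison, and all 4 lists held more of them than a count of 0 allows. Replicate 1 had 4225 for CTCF, 4.67% of its rows, and 2564 for SMC1A, 3.02%. Replicate 2 had 332 and 216, which were 0.271% and 0.145%. Of these, 50.4% and 46.7% of the CTCF peaks and 84.5% and 75.5% of the SMC1A peaks overlapped the other protein. No other result was tested for a sample far from the rest, since each group had 2 libraries.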

How the results depend on the processing

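Of 102 recomputed values over 18 results, leave-outs and the replicate block aside, 73 stayed, 25 moved and 4 reversed. Staying meant within 1 SD of the replicates or, for tested values, keeping the sign. An untested value whose replicates differed in sign could not be counted as reversed. The promoter gap of SMC1A peaks thus stayed, with an SD of 12.8, although in replicate 2 it went from 5.36 to −5.80 points at the stricter threshold. The peak-number ratio with equal list lengths and STAG1 gaps with STAG lists of equal number are fixed by construction and give no value. The reversals were the log2 peak-number ratio at the stricter threshold (−0.34, exact permutation p = 0.333), the difference in shared portions at the stricter threshold (−16.1 points, exact permutation p = 0.333) and with equal list lengths (−0.862 points, exact permutation p = 0.667), and STAG2 minus STAG1 presence at CTCF-only peaks with STAG lists of equal number (−2.60 points). The causes were not tested. Shared portions moved to 57.4% for CTCF with 201 bp summit windows, 66.0% for CTCF with equal lengths, and 76.9% for SMC1A at the stricter threshold. Summit windows also gave strength gaps of 44.5, motif gaps of 16.5, promoter gaps of 0.679, STAG1 gaps of 58.2 and STAG2 gaps of 56.0 points at CTCF peaks, and 6.59 points for STAG2 minus STAG1 at CTCF-only peaks. The stricter threshold gave a CTCF strength gap of 45.3, STAG2 gaps of 61.9 (CTCF) and 33.2 (SMC1A), and STAG2 minus STAG1 of 5.72 (CTCF-only) and 33.9 (SMC1A-only). Equal lengths gave STAG1 gaps of 58.8 and 56.9, STAG2 gaps of 61.1 and 38.2, and STAG2 minus STAG1 of 0.061 at CTCF-only peaks. The last is a mean of 5.11 in replicate 1 and −4.99 in replicate 2. That setting cut only lists longer than 82239 peaks. The STAG1 and STAG2 lists of replicate 1 were shorter and kept their unequal lengths of 63479 and 79048. STAG lists of equal number gave STAG2 gaps of 66.3 and 51.1 and STAG2 minus STAG1 of 11.2 at SMC1A-only peaks. The 11-letter core gave a CTCF motif gap of 12.4, the common threshold a STAG2 gap of 63.6, and the 50% overlap 5.70 for STAG2 minus STAG1 at CTCF-only peaks.

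Without replicate 1 and without replicate 2, the log2 peak-number ratio ran from −0.069 to 0.28 and the difference in shared portions from −3.96 to 10.7 points. In the fit with the replicate block, paired differences kept the means of 0.11 and 3.35 points (exact sign-flip p = 1), and the smallest p that 2 pairs allow is 0.5. A site just below threshold counts as absent, and replicate 1, shallower by the depth estimate, has fewer sites. With 2 libraries a group, the smallest p of the exact permutation test is 0.333.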
